A study of Sus scrofa with 4 samples.

Results

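The non-dividing Sertoli cells of the 7-day pig testis were 6176 of 13847 barcodes of that library that passed the cell filters, or 44.6% (43.8 to 45.4%), and were drawn from 55798 passing barcodes in the whole series. The files held 69602 barcodes in all, against 86453 captured cells stated in the labels. They were chosen on measured counts. To pass, a barcode had to hold 1000 or more unique molecular identifiers (UMIs) over 500 or more genes, with no more than 15% from the 13 mitochondrial genes. To be chosen it needed at least 0.2% of its UMIs from AMH, INHA, CLDN11 and HSD17B3 together, under 1% from INSL3 and CYP17A1, and at most 1 of the division genes TOP2A, UBE2C and CENPF detected. The levels of these 9 genes are therefore a description of the choice, and so is every comparison with the rest of the 7-day library.

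The study sampled testis cells of pigs (Sus scrofa) at 7, 30, 60 and 90 days of age, to follow the niche cells that surround the germ cells. Each age was 1 library of 10x Chromium 3′ version 3 chemistry, and the labels used here give neither the breed nor the number of animals behind a library. With 1 library per age there is no replicate check, age and library cannot be told apart, and no test was run. The groups set against the 6176 cells were the other 7671 passing barcodes at 7 days, the 1570 dividing Sertoli cells among them (same rule, but at least 2 of the 3 division genes), and the barcodes that the same rule chose at later ages, in number 6850, 6221 and 1381 at 30, 60 and 90 days.

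Sertoli cells are the somatic cells that line the seminiferous tubules, hold and feed the germ cells, and form the blood-testis barrier. In the young testis they multiply and secrete anti-Müllerian hormone and inhibin, and their final number sets how many germ cells the adult testis can carry. At puberty they stop dividing, seal the barrier and give up their immature gene expression.

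Levels are the summed UMIs of a group scaled to a total of 1000000 (CPM), which count molecules by their 3′ ends. The ranges in parentheses are exact 95% intervals and hold the error of counting alone. The 6176 cells had a median of 5449.5 UMIs and 2215 genes, against 4773 UMIs in the other 7-day barcodes, and 8104.5 in the dividing Sertoli cells. The same-rule cells had medians of 3873.5, 2596 and 7060 UMIs at 30, 60 and 90 days. A gene counted as higher or lower when it differed by at least 2-fold, with an interval that leaves out no change, among genes with at least 10 counts in the pair of groups. Barcodes that Scrublet called doublets were kept, 431 of the 6176 (6.98%), because the rule does not remove them. Between the 7-day library and the 30-, 60- and 90-day libraries, 92, 79 and 84 deposited barcodes were shared, and 13, 9 and 5 of these were chosen by the rule in both libraries.

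The share of the 4 Sertoli genes had a median of 0.812% in the chosen cells, with a 10th percentile of 0.514%, against a median of 0.0431% in the other barcodes. All 4 genes were detected in 92.7% of the chosen cells and only 1 of them in 6 cells (0.097%). The 70 chosen cells just inside the threshold, at 0.2 to 0.25%, had 692 CPM of AMH, 67.1 of TNNI1 and 2034 of the stromal collagen-binding gene DCN. The 150 non-dividing barcodes just outside it, at 0.15 to 0.2%, had 520, 55.4 and 2037 CPM of the same genes. Among the 7746 Sertoli cells of the library, 20.3% were dividing by the rule, against 4.82%, 5.91% and 8.12% of those at 30, 60 and 90 days. Detection of the division genes depends on depth, which differed between libraries, and these shares were not adjusted for it. Scrublet called 11.8%, 25.1% and 23.8% of the dividing cells doublets at 7, 30 and 90 days.

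**Figure D1:**
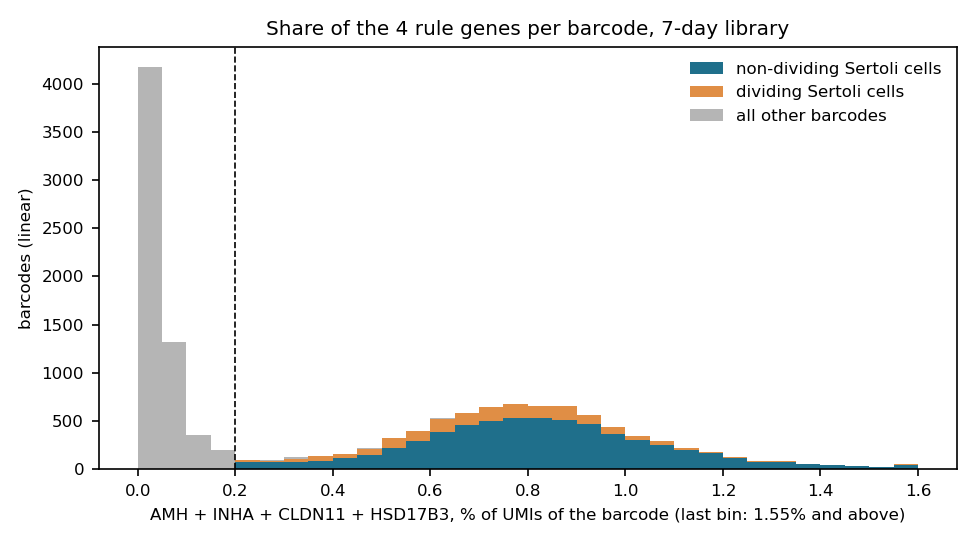
The horizontal axis is the share of a barcode's UMIs from AMH, INHA, CLDN11 and HSD17B3 in the 7-day library, and the vertical axis the number of barcodes per bin of 0.05 percentage points, stacked as non-dividing Sertoli cells, dividing Sertoli cells and all other barcodes. The dashed line marks the threshold of 0.2%, and the chosen cells centre on a median of 0.812%.

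Sertoli markers that the rule does not name were read in the same contrast that the rule used, so the values are a description. TNNI1 and ASS1 were given with the label as markers of these cells, so their levels are no check of it. TNNI1, the troponin I of slow muscle, was 251.8 CPM (246.8 to 256.9) in the 6176 cells and 7.86 to 60.2 CPM in the 10 classes of 7-day barcodes outside the Sertoli cells. ASS1, an enzyme that makes argininosuccinate in the urea cycle and in arginine recycling, was 776.9 CPM in the chosen cells and 36.5 CPM in the T or NK class. SOX9, the transcription factor of Sertoli fate, was 248.4 CPM in the chosen cells and 74.9 CPM in the other barcodes. At least 1 TNNI1 count was found in 66.5% of the chosen cells, against 4.14% of 169 T or NK barcodes, which should lack it, at median depths of 5449.5 and 2922 UMIs. With each cell thinned to 2000 UMIs, which left out 136 of the chosen cells, the shares were 37.2% and 2.74%. ASS1 was found in 94.8% of the chosen cells and 13.02% of T or NK barcodes, or 76.2% and 8.22% after thinning. Other listed markers went against the label: KRT18, PTGDS and SOX8 were lower in the chosen cells than in the other barcodes, at 0.287, 1.72 and 0.209 CPM against 1.42, 3.59 and 0.492 CPM. EMX2 had 0 counts in the chosen cells. For the rule genes, whose contrast the choice fixed, AMH was 2407 CPM in the chosen cells and 127 to 235 CPM in the 10 classes.

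**Figure D2:**
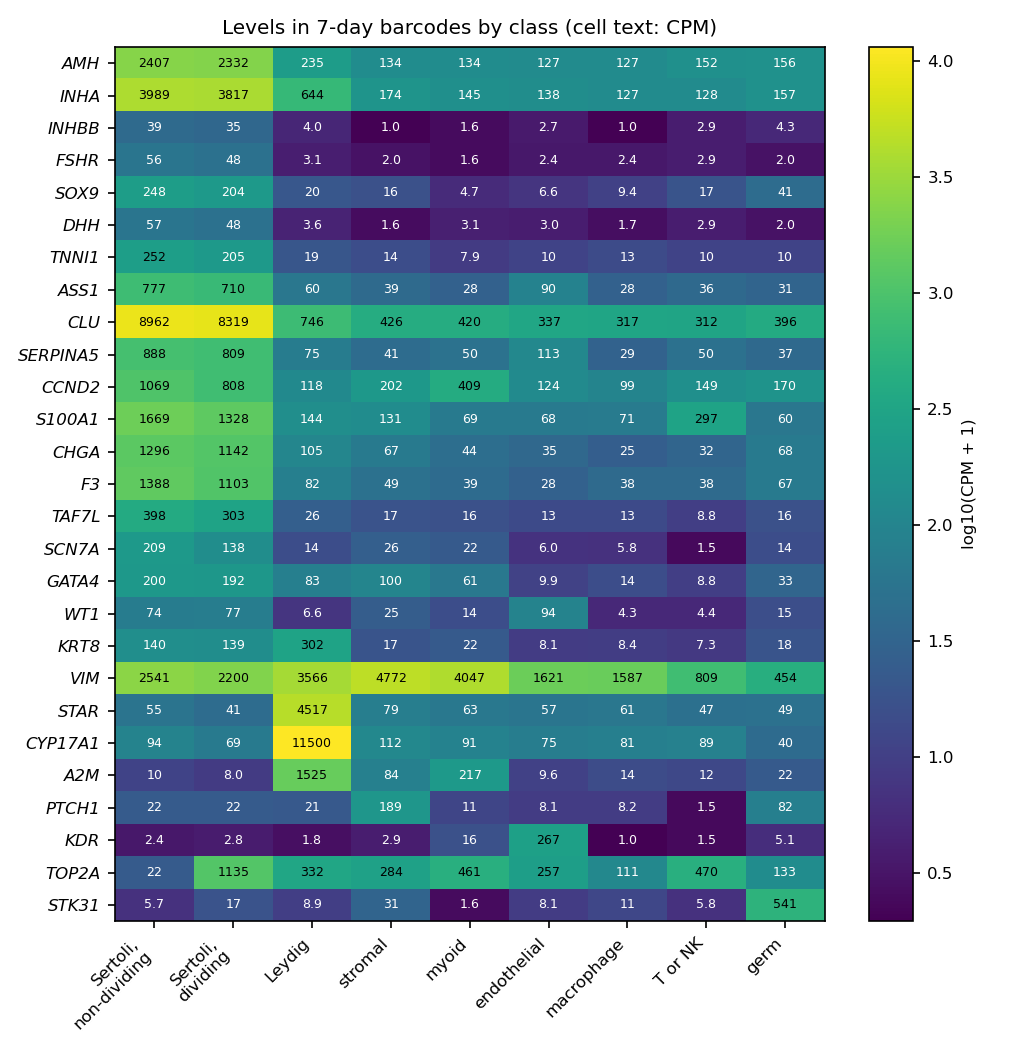
Each column is a class of 7-day barcodes, with the non-dividing Sertoli cells leftmost and classes of the other barcodes assigned by their largest share of marker genes; each row is a gene, the colour is log10(CPM + 1) and the printed value is CPM. TNNI1, SOX9, DHH and FSHR were highest in the 2 Sertoli columns, STAR and CYP17A1 in Leydig barcodes and TOP2A in dividing Sertoli cells.

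Against the other 7-day barcodes, 930 of 22897 genes were higher (4.06%) and 8177 lower (35.7%). The median log2 ratio over all genes tested was −0.51. The other barcodes include the dividing Sertoli cells, which carry many of the same genes. Against the 4174 barcodes with under 0.05% of UMIs from the 4 genes, 1669 genes were higher (7.54%) and 8979 lower (40.6%). With TMM factors, which add 0.42 to each log2 ratio, 23.3% of the called genes were higher in place of 10.2%. CLDN11, the claudin of the Sertoli cell barrier and a rule gene, was 948.0 CPM in the chosen cells and 226.5 CPM in the others, a log2 ratio of 2.07 (2.04 to 2.10). SCN7A, a sodium channel gene, was 209.1 CPM against 52.2 CPM. F3, the tissue factor that starts coagulation, was 1388 CPM against 362.2 CPM, with a log2 ratio of 1.94 (1.91 to 1.96), and 5.09 against the barcodes under 0.05%.

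HSD17B3, which turns androstenedione into testosterone and is a rule gene, was 850.0 CPM in the chosen cells and 227.8 CPM in the others. SPHK1, a sphingosine kinase, had a log2 ratio of 1.85 (1.81 to 1.90). AMHR2, the receptor of AMH, was 103.8 CPM against 26.3 CPM, and ADORA1, an adenosine receptor, 66.1 CPM against 16.7 CPM. S100A1 and S100A2, EF-hand calcium sensors, were 1669 CPM and 154.5 CPM in the chosen cells, against 463.1 and 36.4 CPM. CHGA, a granin of secretory vesicles, was 1296 CPM against 380.4 CPM and was found in 98.0% of the chosen cells and 10.7% of T or NK barcodes, or 89.9% and 6.16% after thinning. TAF7L, a paralogue of a basal transcription factor subunit, was 398.4 CPM against 101.2 CPM. ITPRID1, RHBDL2, PLEKHB1, CSDC2, ENPP5, FBXO2, FAM110C and TNNI1 were also among the genes named by the rule, with log2 ratios from 1.84 to 1.99.

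Among the 10 lowest genes by the naming rule, UBE2C, TOP2A and CENPF were limited by the rule, and ASPM, a spindle pole protein that the rule did not use, was 4.80 CPM in the chosen cells and 107.4 CPM in the others. STK31, TKTL1 and CLGN, genes known from germ cells, had log2 ratios of −4.38, −4.34 and −4.27. A2M, a protease inhibitor, and AGT, the precursor of angiotensin, had −4.29 and −4.17. RDH12, a retinol dehydrogenase, was 10.9 CPM in the chosen cells and 201.0 CPM in the others. In the Leydig class A2M was 1525, AGT 930.4 and RDH12 1734 CPM.

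The list counts against the other barcodes stand beside 4.06% of all genes higher, 35.7% lower and a median of −0.51, and no list was tested. Of 18 matched Sertoli markers outside the rule, 9 were higher than in the other barcodes and 4 lower, with a list median of 0.99. The higher ones include TNNI1 and ASS1, which were given with the label. Against the barcodes under 0.05% 12 were higher and the same 4, KRT18, PTGDS, EMX2 and SOX8, lower. DHH, the hedgehog ligand by which Sertoli cells signal to Leydig and peritubular cells, was 56.7 CPM in the chosen cells and 15.7 CPM in the others, and 1.17 CPM in barcodes under 0.05%. FSHR, the receptor of follicle-stimulating hormone, was 55.6 CPM against 15.8 CPM, a log2 ratio of 1.82. CLU, a secreted chaperone, was 8962 CPM against 2752 CPM. GATA4, a transcription factor of the gonadal somatic lineages, had a log2 ratio of 1.03 (0.98 to 1.08), and WT1, a zinc finger factor needed for Sertoli cells, 0.95 (0.87 to 1.04), which is under 2-fold. KRT8, a keratin of simple epithelia, was 139.7 CPM in the chosen cells and 83.3 CPM in the others, a log2 ratio of 0.75.

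In the list of AMH, inhibin and activin genes, 6 of 28 tested were higher and 6 lower, and the median ratio was 0.24. AMH and INHA among the higher genes are rule genes, whose contrast the choice fixed. The ligand genes AMH, INHA, INHBA and INHBB were higher, while INHBC, a further beta subunit, was lower with 0 counts in the chosen cells. INHA, the inhibin alpha subunit, was 3989 CPM in the chosen cells and 1282 CPM in the others. INHBA and INHBB, the beta subunits, were 277.8 and 39.0 CPM in the chosen cells against 111.6 and 12.0 CPM in the others. FSTL3, which binds and blocks activin, was 222.1 CPM against 79.8 CPM, while FST, its relative follistatin, was 1.38 CPM against 6.44 CPM. TGFBR3, betaglycan, the coreceptor of inhibin, was 27.8 CPM in the chosen cells and 190.2 CPM in the others.

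Among 25 tested factors of sex determination, SOX9, GATA4, GATA6 and, at 1.46 CPM, SOX10 were higher and 11 were lower. GATA6 was 209.6 CPM in the chosen cells and 64.9 CPM in the others. LHX9 and NR2F2, known from interstitial progenitors, were 14.4 and 24.9 CPM in the chosen cells against 77.7 and 158.1 CPM in the others. In 478 of the chosen cells that clustered together, 65.3% of them called doublets, LHX9 was 134.3 CPM. It was 1.956 CPM in the remaining chosen cells. DMRT1, a factor of Sertoli and germ cells, was 65.4 CPM against 61.7 CPM. Of 10 tested genes of the ovarian pathway 1 was higher, LGR5, a receptor of R-spondins, at 26.1 CPM against 10.2 CPM, and 5 were lower.

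Of 39 tested signals to germ cells and neighbours, 5 were higher and 23 lower, at a list median of −1.14. NRTN, a relative of GDNF, was 78.5 CPM in the chosen cells and 30.3 CPM in the others. WNT6 was 53.9 CPM against 16.0 CPM, and PDGFA, a platelet-derived growth factor, 108.7 CPM against 39.2 CPM. CXCL12, a chemokine, was 100.8 CPM in the chosen cells and 590.1 CPM in the others. In the hedgehog list DHH was higher and 8 of 15 tested genes lower, at a list median of −1.66, among them the targets PTCH1, at 22.4 CPM against 70.9 CPM, and HHIP, at 16.7 CPM against 94.9 CPM. Of 35 tested WNT genes 2 were higher and 21 lower, of 17 in the insulin-like growth factor list 0 were higher and 11 lower, and of 14 in the thyroid hormone list 0 were higher and 6 lower. Their list medians were −2.34, −1.42 and −0.56, the last close to that of all genes. THRA, a thyroid hormone receptor, was 62.5 CPM in the chosen cells and 76.2 CPM in the others. FSHR was the only higher gene of 26 receptors, a higher count near the background of 4.06%, and 16 were lower, at a list median of −1.22.

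Of 31 tested junction genes 9 were higher, the rule gene CLDN11 among them, and 6 lower, at a list median of 0.05. CXADR, an adhesion molecule, was 199.0 CPM in the chosen cells and 69.7 CPM in the others, CDH2, N-cadherin, 139.6 CPM against 52.4 CPM, and DSP, desmoplakin, 186.9 CPM against 74.7 CPM. In the basement membrane list SMOC1, a matricellular calcium-binding protein, was the only higher gene of 29, at 68.4 CPM in the chosen cells and 25.02 CPM in the others, and 14 were lower, a higher count near the background of 4.06%. COL4A1, a type IV collagen chain, was 101.9 CPM against 324.9 CPM. In the keratin and muscle list the higher genes were 4 troponins, TNNI1, TNNT1, TNNC1 and TNNI3, of 34 tested. Other troponins, TNNI2, TNNT2, TNNT3 and TNNC2, were among the 13 lower genes, a lower count near the background of 35.7%. Among 27 urea cycle and polyamine genes ASS1, ARG2 and SLC7A5 were higher and 8 were lower. The 1 higher gene of 26 in the glycolysis list and of 30 in the cholesterol and steroid list is near the background of 4.06% higher. They were ENO1, an enolase, at 3541 CPM in the chosen cells and 1383 CPM in the others, and the rule gene HSD17B3. STAR, which brings cholesterol into mitochondria, was 54.8 CPM against 549.1 CPM. In the retinoid list ALDH1A1, CYP26B1 and CRABP2 were higher and 11 of 21 lower. Of 32 secreted proteins 6 were higher, CLU, SERPINA5, PLAT, TIMP3, APOA1 and GSN, and 18 lower. SERPINA5, an inhibitor of protein C and plasminogen activators, was 888.1 CPM in the chosen cells and 272.7 CPM in the others. Of 27 immediate early genes 3 were higher and 4 lower, at a median ratio of 0.48. FOS was 6238 CPM in the chosen cells and 3586 CPM in the others, and ATF3 1660 CPM against 790.3 CPM; these genes respond to stimuli and also to tissue dissociation.

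**Figure D3:**
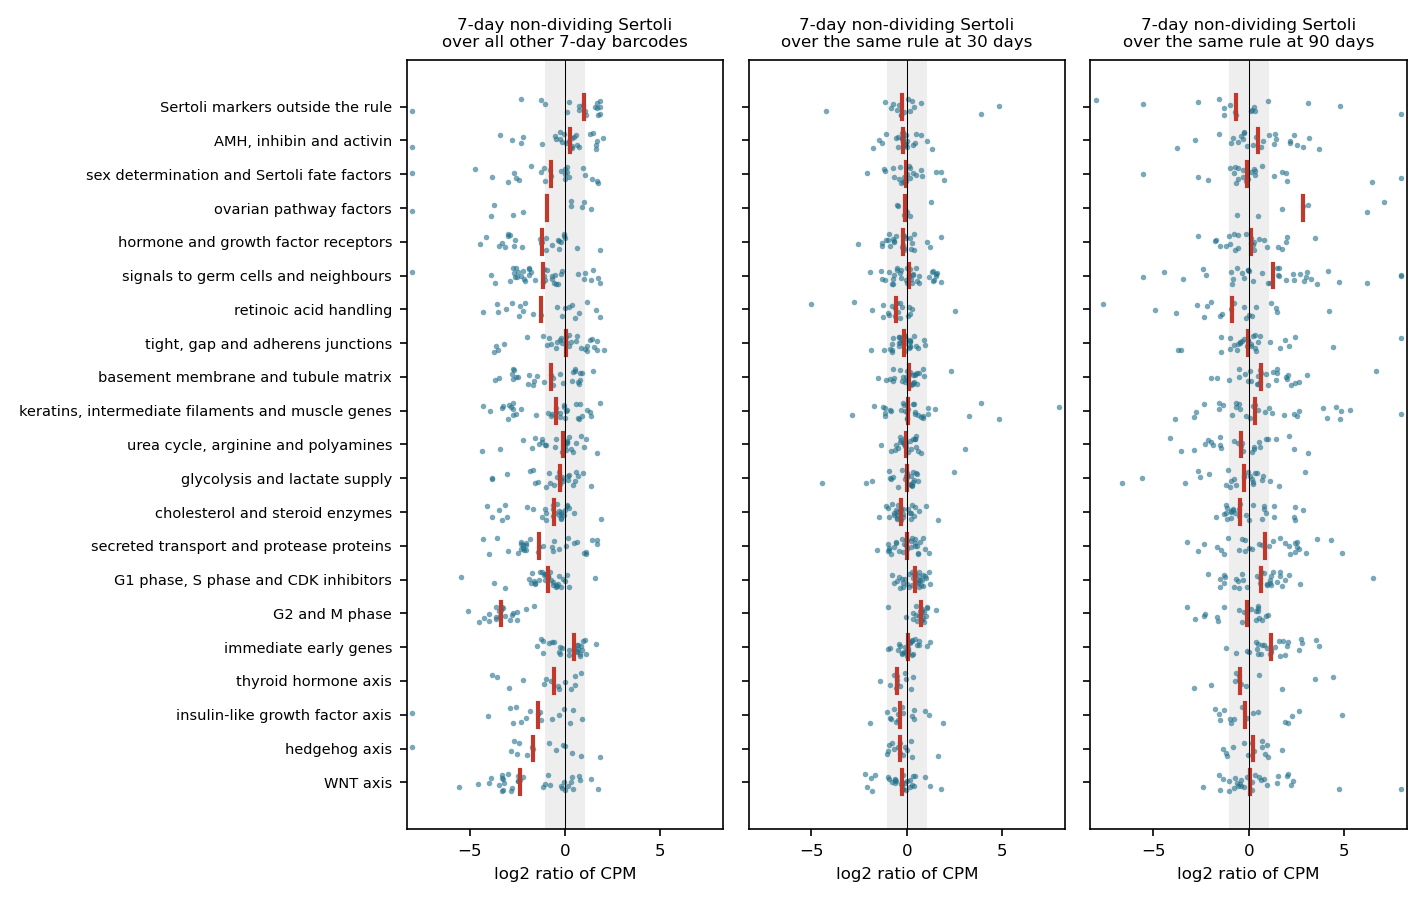
Each point is a listed gene with at least 10 counts in the pair of groups, placed by the log2 ratio of its CPM in the 7-day non-dividing Sertoli cells over the group named above each panel; red bars are list medians, the grey band is under 2-fold and values beyond 8 are drawn at 8. The G2 and M phase list has a median of −3.33 over the other 7-day barcodes and 0.75 over the same rule at 30 days.

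The 10 genes with the most counts in the chosen cells were CLU, TPT1, APOA1, FOS, JUN, CD74, PTMA, INHA, CST3 and ENO1. APOA1, the main apolipoprotein of high-density lipoprotein, was 6666 CPM in the chosen cells and 2484 CPM in the others. CD74, the invariant chain of MHC class II, was 4050 CPM in the chosen cells, 4502 CPM in the other barcodes and 5160 CPM in those under 0.05%.

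Set against dividing Sertoli cells of the same library, the chosen cells had few higher genes. Of 18638 genes, 107 were higher (0.574%) and 1059 lower (5.68%). Over all genes tested the median log2 ratio was −0.04. With each cell weighted equally, 30.5% of the called genes were higher in place of 9.18%. The rule chose on TOP2A, UBE2C and CENPF here, so genes of the same phase are part of that choice. All 21 tested genes of G2 and M phase were lower. CDC20, an activator of the anaphase complex, was 8.16 CPM in the non-dividing cells and 175.9 CPM in the dividing ones, and HMGB2, a chromatin protein, 105.2 CPM against 987.3 CPM. Of 33 G1, S phase and inhibitor genes, 17 were lower and 0 higher. PCNA, the clamp of DNA polymerase, was 64.9 CPM in non-dividing and 248.0 CPM in dividing cells, and CDKN2C, an inhibitor of CDK4 and CDK6, 1.90 CPM against 23.9 CPM. The largest ratios on the higher side by the naming rule were under 2-fold. GJA1, the gap junction protein connexin 43, was 59.4 CPM in non-dividing and 34.3 CPM in dividing cells, a log2 ratio of 0.79 (0.66 to 0.93). RHBDL2, CDC42EP5, SCN7A and ISG15 had 0.73, 0.65, 0.60 and 0.61. AMH was 2407 CPM in non-dividing and 2332 CPM in dividing cells, TNNI1 251.8 and 204.9 CPM, and CCND2, the cyclin that drives G1, 1069 and 807.5 CPM.

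Non-dividing by this rule did not mean outside the cell cycle. Of the 6176 cells, 4764 had none of the 3 division genes and 1412 had 1 of them. With each cell thinned to 2000 UMIs, at least 3 of 16 S phase genes were found in 8.73% of the chosen cells, against 38.5% of the dividing ones. At least 3 of 15 G2 and M phase genes outside the rule were found in 1.42% of the chosen and 58.9% of the dividing cells. The 16 S phase genes summed to 740.8 CPM in the chosen cells with 1 division gene and 439.7 CPM in those with none.

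Across ages, the same rule took 39.6% of the 30-day barcodes, 51.9% of the 60-day ones and 10.9% of the 90-day ones. In order of age, AMH was 2407, 956.4, 905.6 and 189.3 CPM, and INHA was 3989, 3167, 1996 and 679.6 CPM. Both are rule genes. At 90 days the median share of the 4 genes was 0.272% and lay close to the threshold, so the 90-day cells are those that still reached it. The stromal marker list summed to 1595, 1551, 1932 and 440.6 CPM in order of age. In 7-day cells with at least 2000 UMIs, LUM of this list had a median of 5.67 counts per 10000. DCN, COL1A1, COL1A2 and COL3A1 had a median of 0 in the same cells. The erythroid list summed to 180.9 CPM at 7 days and 16.3, 6.06 and 3.42 CPM at the later ages, and the germ cell list to 28.1, 50.9, 95.2 and 117.7 CPM. Their part in the age results was not tested.

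Against the 30-day cells, 790 of 19687 genes were higher at 7 days (4.01%) and 1805 lower (9.17%). The median log2 ratio was −0.13. With TMM factors, which add 0.13, 41.1% of the called genes were higher in place of 30.4%. KRT8 was 139.7 CPM in the 7-day cells and 4.96 CPM in the 30-day cells, a log2 ratio of 4.82 (4.59 to 5.05), but 233.9 CPM at 60 days and 5.03 at 90 days. TNNI1 was 251.8 CPM against 16.7 CPM, a log2 ratio of 3.91 (3.79 to 4.04). DAPL1 was 69.9 CPM against 5.20 CPM. CCL2, a chemokine that draws monocytes, was 338.8 CPM against 45.3 CPM. ISG15 and MX1, interferon response genes, were 123.9 and 77.3 CPM in the 7-day cells, against 32.0 and 19.5 CPM in the 30-day cells. Both were above the chosen cells in the other 7-day barcodes, at 246.0 and 137.8 CPM. SMOC1, LGALS3BP and ID3 followed, with log2 ratios of 2.29, 1.77 and 1.76. ID3, an inhibitor of DNA binding that answers to BMP signals, was 152.5, 45.1, 33.5 and 5.69 CPM in order of age.

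The genes lower at 7 than at 30 days include several that were higher still at 60 and 90 days. In order of age, CRABP1, which binds retinoic acid, was 5.06, 162.9, 376.1 and 1006 CPM. PRND, which encodes doppel, a relative of the prion protein, was 3.99, 180.9, 369.8 and 698.5 CPM in the same order, and DEFB119, a beta-defensin, 2.89, 53.6, 196.0 and 1589 CPM. PENK, the precursor of enkephalins, was 9.04 CPM in the 7-day cells and 58.7 CPM in the 30-day cells. PIEZO2, a mechanosensitive ion channel, was 19.4 CPM against 117.0 CPM, and EPHX2, a soluble epoxide hydrolase, 36.3 CPM against 157.1 CPM. C14orf180, ABHD4, PAK3 and WIPF3 complete the 10, with log2 ratios of −2.54, −2.52, −2.47 and −2.45.

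Of 33 tested G1, S phase and inhibitor genes, 3 were higher at 7 than at 30 days and 0 lower, and of 21 G2 and M phase genes 3 and 0. The list medians were 0.43 and 0.75, beside 4.01% of all genes higher, 9.17% lower and a median of −0.13. CCND2 was 1069, 526.6, 471.0 and 11.5 CPM in order of age. UHRF1, which carries DNA methylation through replication, was 15.3 CPM in the 7-day cells and 6.72 CPM in the 30-day cells. CDKN1A, the inhibitor p21, was 40.9, 70.3, 96.8 and 98.8 CPM in order of age. In the Sertoli marker list TNNI1 and KRT8 were higher at 7 than at 30 days, DEFB119 and NR0B1 lower, and 12 neither. SOX9 was 248.4, 303.5, 396.8 and 399.3 CPM in order of age, WT1 74.4, 99.3, 147.4 and 148.9 CPM, and FSHR 55.6, 43.5, 39.6 and 45.7 CPM. Of 37 ligands 9 were higher and 3 lower; WNT6 was 53.9 CPM in the 7-day cells and 15.8 CPM in the 30-day cells, and MDK, the growth factor midkine, 336.9 CPM against 111.6 CPM. Of 32 keratin and muscle genes 7 were higher and 6 lower, with NES, the filament protein nestin, at 53.6 CPM against 24.5 CPM. HK2, a hexokinase, was 1.62, 35.04, 25.2 and 163.3 CPM in order of age.

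**Figure D4:**
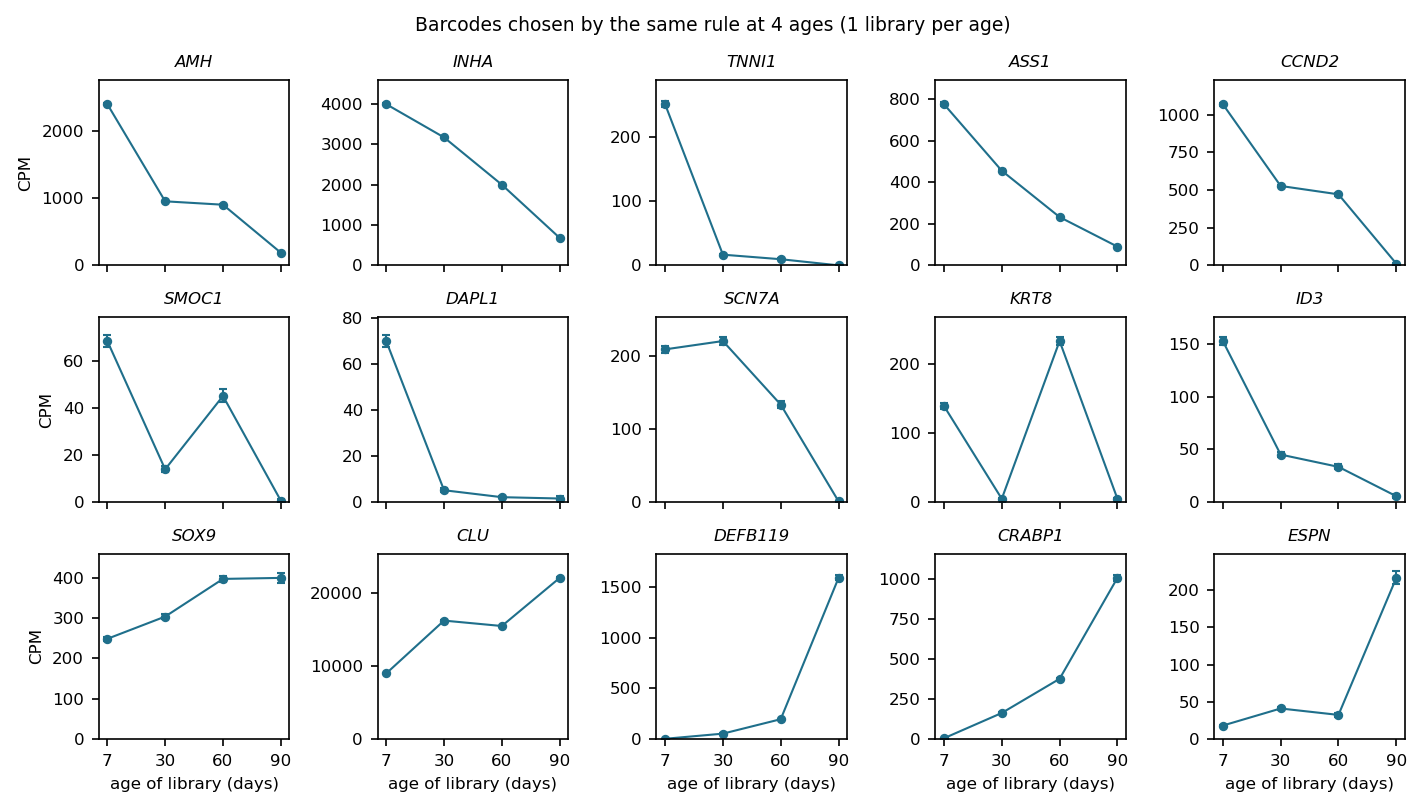
Each panel gives CPM of a gene on a linear axis from 0 in the barcodes that the same rule chose in the 7-, 30-, 60- and 90-day libraries; bars are exact 95% Poisson intervals and there is 1 library per age. TNNI1 stood at 251.8 CPM in the youngest cells and at 0 in the 90-day cells, KRT8 was high at 7 and 60 days, and DEFB119 and CRABP1 were highest at 90 days.

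Against the 60-day cells, 704 of 20061 genes were higher at 7 days (3.51%) and 4308 lower (21.5%). The median log2 ratio was −0.32. The 60-day cells were the shallowest, and with TMM factors, which add 0.33, 33.3% of the called genes were higher in place of 14.0%. SPINK5, a serine protease inhibitor, was 70.8 CPM in the 7-day cells and 1.68 CPM in the 60-day cells, with 249.8 CPM at 30 days between them. DAPL1 was 69.9 CPM against 2.19 CPM, and TNNI1 had a log2 ratio of 4.71. STAR was 54.8 CPM in the 7-day and 7.49 CPM in the 60-day cells, beside a Leydig marker sum of 915.1 and 427.1 CPM in the same cells, and its part was not tested. PRND, CRABP1, DEFB119, TESC and PENK were the lowest at 7 days, with log2 ratios of −6.54, −6.22, −6.08, −4.34 and −3.87. Of 27 immediate early genes 0 were higher and 8 lower, among them NR4A2, a nuclear receptor, at 23.3 CPM in the 7-day cells and 230.4 CPM in the 60-day cells. Of 26 hormone and growth factor receptors 0 were higher and 9 lower, and of 14 hedgehog genes 0 and 7, beside 3.51% higher and 21.5% lower of all genes.

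Against the 90-day cells, 2360 of 19467 genes were higher at 7 days (12.1%) and 5584 lower (28.7%). The median log2 ratio was −0.33. With TMM factors, which add 0.43, 48.3% of the called genes were higher in place of 29.7%. TNNI1 had 0 counts in the 90-day cells and was at least 884.7-fold higher at 7 days, against a floor of 3 counts over the group. NXNL2, a thioredoxin-like gene, was 96.3 CPM in the 7-day and 0.285 CPM in the 90-day cells, and SCN7A 209.1 CPM against 1.23 CPM. CCND2 and KCNK12, a potassium channel gene, had log2 ratios of 6.54 (6.28 to 6.81) and 7.01 (6.13 to 8.08). The lowest at 7 days were TNP1, PRM2, PRM1 and HMGB4, genes of spermatids that package sperm DNA or mark these cells, and AQP8, a water channel. TNP1 had 1 count at 7 days, or 0.0261 CPM, against 603.6 CPM at 90 days, and PRM1, PRM2 and HMGB4 had none. The germ cell marker list, which holds none of these 4 genes, summed to 28.1 CPM in the 7-day and 117.7 CPM in the 90-day cells, and its part was not tested. AQP8 was 0.104 CPM at 7 days and 304.8 CPM at 90 days.

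By list, the basement membrane genes higher at 7 than at 90 days were 13 of 29, and 2 were lower, beside 12.1% and 28.7% of all genes. COL4A2, a type IV collagen chain, was 303.0 CPM in the 7-day and 36.6 CPM in the 90-day cells, HSPG2, perlecan, 150.8 CPM against 28.3 CPM, and SMOC1 68.4 CPM against 0.664 CPM. Of 26 AMH, inhibin and activin genes 11 were higher, the rule genes AMH and INHA among them, and 3 lower. AMHR2 was 103.8 CPM against 11.5 CPM and INHBB 39.0 CPM against 8.82 CPM. Of 36 ligands 18 were higher and 5 lower. BMP2 was 27.7 CPM against 0.380 CPM and WNT6 53.9 CPM against 1.99 CPM, while TGFB2 was 7.87 CPM in the 7-day and 169.5 CPM in the 90-day cells. Of 31 keratin and muscle genes 12 were higher and 7 lower. VIM, vimentin, was 2541 CPM against 414.6 CPM, and TPM4, a tropomyosin, 559.2 CPM against 19.6 CPM. Of 20 retinoid genes 3 were higher and 9 lower, with ALDH1A1, which makes retinoic acid, at 27.8 CPM in the 7-day and 830.1 CPM in the 90-day cells. GJA1 was 59.4 CPM against 164.1 CPM, and ESPN, espin of the actin bundles at Sertoli junctions, 18.2 CPM against 216.6 CPM. CLU had a log2 ratio of −1.30 and WT1 was 74.4 CPM against 148.9 CPM, and both would lie within 2-fold with TMM factors. Of 27 immediate early genes 15 were higher and 1 lower, and ATF3 was 1660 CPM in the 7-day and 144.5 CPM in the 90-day cells.

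Among the 6176 cells themselves, markers outside the rule were unevenly detected. In cells with at least 2000 UMIs, TNNI1 and SOX9 had medians of 1.96 and 1.94 counts per 10000 and a 25th percentile of 0, and DHH, FSHR and WT1 a median of 0. ASS1 had a median of 7.34, with a 10th percentile of 2.28 and a 90th of 13.8. Of the rule genes, which set the choice of each cell, INHA had a median of 39.1 counts per 10000, with a 10th percentile of 22.3 and a 90th of 58.8, and AMH a median of 21.0, with 8.52 and 44.3. CLU had a median of 87.7, with 54.1 and 129.9, while F3 had a median of 10.8, with 0 and 32.8. Variance relative to the mean at 2000 UMIs was largest, among genes with at least 100 CPM, for COL1A1 (6.89), COL3A1 (6.88), CST3 (6.62), COL1A2 (5.51) and DCN (5.46), followed by RRAD, CXCL12, ATF3, TAGLN and F3. CST3, the cystatin C inhibitor, reached 1294 counts per 10000 in a cell, against a median of 36.3. The collagens and DCN belong to stromal cells, and 458 of the chosen cells (7.42%) held at least 0.3% of UMIs from 10 stromal markers. Scrublet called 64.4% of these cells doublets, against 2.38% of the other 5718.

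Leiden clustering of the chosen cells gave 11 subclusters, which are left unnamed and described by their leading genes. The largest, with 2196 cells, was led by NUAK2, IER3, DUSP5 and TRIB1, genes induced by stress and growth signals. A group of 1729 cells was led by FOS, at 7583 CPM against 5854 CPM in the other chosen cells, a log2 ratio of 0.37. The largest log2 ratio among its leading genes was 0.475, for SEZ6L, so it stood out little. A further 922 cells were led by HSP70.2 and DNAJB1, genes of the heat shock response, with log2 ratios of 2.30 and 1.30. AMH was 2474, 2620 and 2564 CPM in these 3 subclusters, and TNNI1 255.2, 284.5 and 265.1 CPM. A subcluster of 427 cells was led by PCLAF, UHRF1 and CLSPN, genes of S phase, and had an AMH level of 2763 CPM, and 87 cells were led by CDC20, ASPM and PIMREG, genes of mitosis. The 90 cells led by S100A2, MYH11 and CSRP3 had 3631 CPM of 9 peritubular myoid and smooth muscle markers, against 974.5 CPM in the largest subcluster, and 0 of them were called doublets. Most of that sum was TAGLN, at 3286 CPM against 605.0 CPM in the other chosen cells. MYH11 was 69.07 CPM against 5.15 CPM. The 478 cells led by COL1A1, PI15 and C7 had 9662 CPM of the stromal markers, 1724 CPM of AMH and 65.3% called doublets. Doublet calls were also frequent in 110 cells led by CCL8, GNLY and GPR183, at 42.7%, in 109 cells led by GPIHBP1, CA4 and CD93, genes of endothelium, at 37.6%, and in 16 cells led by SKOR2, ONECUT2 and JPH1, at 68.8%. The last 12 cells were led by SDS, TGM3 and CXCL8. Leaving out the cells with at least 0.3% stromal markers gave 979 higher and 8271 lower genes against the other barcodes, an alternative chosen after seeing the data.

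**Figure D5:**
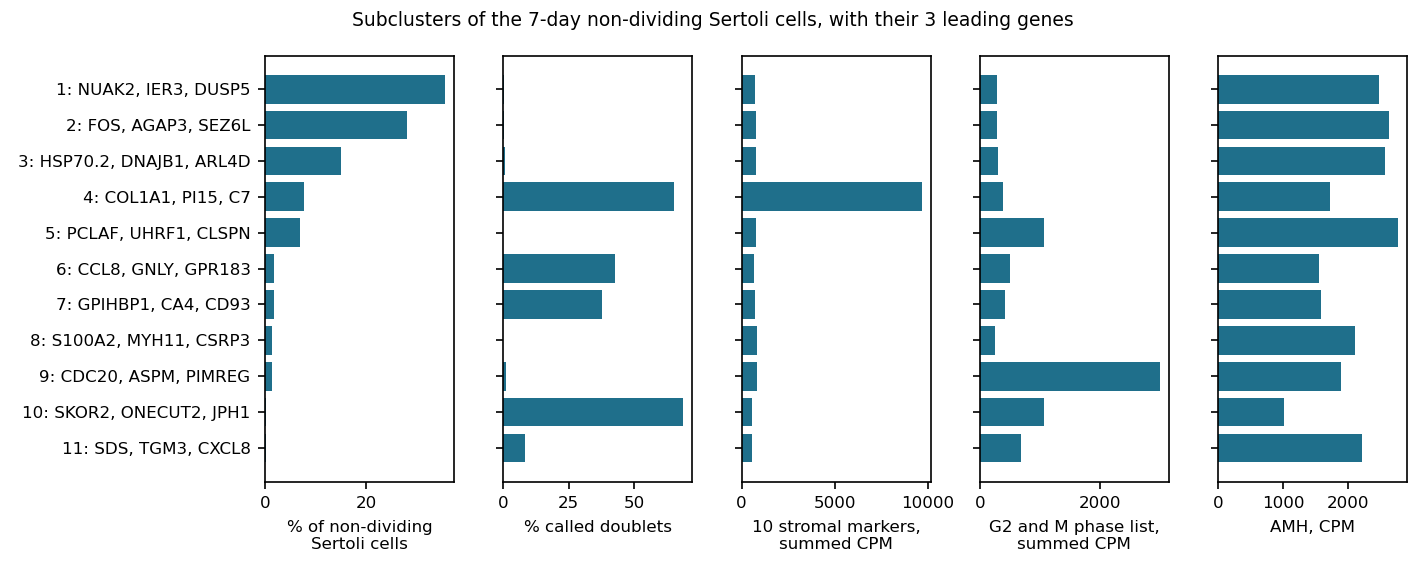
Each row is a subcluster of the 6176 cells with its 3 leading genes, and the bars give on linear axes its share of the cells, the share called doublets, the summed CPM of 10 stromal markers and of the G2 and M phase list, and the CPM of AMH. Subcluster 4, led by COL1A1, stands apart in stromal markers and doublet calls, and subcluster 9, led by CDC20, in G2 and M phase genes.

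The 4 marker genes of these cells lie on 4 chromosomes in build Sscrofa11.1. AMH is on chromosome 2 (76415564 to 76418315), INHA on chromosome 15 (121581847 to 121586020), TNNI1 on chromosome 10 (23788279 to 23800554) and ASS1 on chromosome 1 (270531434 to 270586364). All 4 are annotated as protein-coding, and the counts are of whole genes and do not separate exons, introns or isoforms.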

How the data were processed

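Single cells of pig testis at 7, 30, 60 and 90 days were sequenced, 1 library per age. Per the labels' protocols the libraries used 10x Chromium 3′ chemistry, and build Sscrofa11.1, Scanpy 1.7.1, bcl2fastq and Cell Ranger (5.0.1 per the file headers) are listed in the submitters' processing notes. The deposited values are raw UMI counts per gene and barcode, 45717373 to 96133720 per library. Of 31908 features, 16508 had a symbol in the files and 825 got a symbol from a RefSeq table of the same build.

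Counts were summed over the cells of a group and expressed as CPM. Ratios carry exact conditional binomial 95% intervals. Cells were thinned to 2000 UMIs for shares of cells. Scrublet was run in Scanpy 1.11.5, where it called 0 barcodes at 60 days and had not worked. Subclusters were made with Leiden (leidenalg 0.10.2) at resolution 0.5. Other 7-day barcodes were classed by their largest marker share with at least 3 markers detected. The genes named were those with the interval bound farthest from no change, at 50 CPM or more in the higher group, 20 and 10 against the other barcodes, 10 each way against 30 days and 5 each way otherwise, with the 10 most abundant and the 10 most variable genes. Some of the genes so named are not reported here. Further genes come from 21 lists, at 5 CPM or more in a group compared. Which of them the text gives was chosen after their values were seen. SOX10 and TNNC1, below that level, complete short counts. The troponins TNNI2, TNNT2, TNNT3 and TNNC2 are named for the same reason, whatever their level. Alternatives covered the rule's thresholds, doublets, cell weighting, thinning, TMM factors (edgeR 4.0.16), free RNA, count minimum and fold. The interval code was tested on simulated data. The cells and lists were chosen with earlier results of these data known. Cells of 1 library are not replicates, so no p-value is given.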

Additional observations from a re-analysis of the deposited data

How the results depend on the processing

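No paired analysis was possible because each age is 1 library and no replicate numbers are shared. Among the genes picked by the naming rule for a comparison, no ratio reversed. Each of them past 2-fold stayed past 2-fold in the same direction in all settings run. Other genes given from the lists were not followed in this way. Of these, CLU and WT1 against 90 days would lie within 2-fold with TMM factors. For the genes picked by the naming rule, the size of the ratios was less stable. Over all settings, 355 of their ratios fell outside the interval of the main setting and 465 stayed inside. With TMM factors 55 fell outside and 25 stayed inside. The number of chosen cells, 6176, was 6604 at a share of 0.1%, 5874 at 0.4%, 4764 with none of the 3 division genes, 5973 with a stricter cell filter, 5745 without Scrublet doublets and 5718 without cells of 0.3% stromal markers, which was chosen after seeing the data. Against the other 7-day barcodes, the higher genes were 570 with none of the 3 division genes, 1541 with cells weighted equally, 2031 with TMM factors, 1876 at 1.5-fold, 42 at 4-fold and 1669 against barcodes under 0.05%, and the lower genes 4681 after thinning. Against dividing cells, the higher genes were 220 without doublets, 679 with cells weighted equally, 237 with 10% free RNA subtracted, 52 at 50 counts, 316 at 1.5-fold and 34 at 4-fold, and the lower genes 695 at a share of 0.4%, 678 without doublets, 688 after thinning, 634 at 50 counts and 363 at 4-fold. Against 30 days, the higher genes were 1192 with cells weighted equally, 1453 at 1.5-fold and 224 at 4-fold, and the lower genes 1174 after thinning, 1070 at 50 counts, 3057 at 1.5-fold and 582 at 4-fold. Against 60 days, the higher genes were 1457 with TMM factors, 1560 at 1.5-fold and 185 at 4-fold, and the lower genes 2587 after thinning, 2342 at 50 counts and 1712 at 4-fold. Against 90 days, the higher genes were 1321 at a share of 0.4%, 3815 with TMM factors and 1135 at 4-fold, and the lower genes 3341 at a share of 0.4%, 3651 at 50 counts and 3114 at 4-fold. The causes were not tested. By their design the setting of 50 counts takes fewer genes and that of 0.4% fewer cells. In the 90-day cells the 90th percentile of the share was 0.387%, so most of them fell under 0.4%. At that setting the median log2 ratio against 90 days was −0.956 in place of −0.33. The setting without doublets gave no value at 60 days. Of the counts within lists 609 moved by over 1.5 times and 2331 did not. The median depth of 2596 UMIs at 60 days limits what can be seen of low genes there.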

Other observations

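CD79A, a chain of the B cell receptor, was 345 CPM in the non-dividing Sertoli cells, 334 CPM in the other 7-day barcodes and 237 to 784 CPM in the 10 classes of these. Its partner CD79B was 0.417 CPM and the B cell gene MS4A1 0.130 CPM in the same Sertoli cells, against 429.7 and 143.2 CPM in 19 B lineage barcodes. WT1 was 74.4 CPM in the non-dividing Sertoli cells and 93.9 CPM in the endothelial class, and KRT8 was 139.7 CPM in the Sertoli cells and 301.6 CPM in the Leydig class.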
